A study of Mus musculus with 6 samples.

Results

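The Myc and Max network is described here through 10 genes: the MYC-family factors Myc and Mycn, their obligate partner Max, the MAX-binding repressors Mxd1, Mxd3, Mxd4, Mxi1 and Mnt, and the MAX-like factor Mlx with its partner Mlxip. A member was a gene on this list measured by a probe set with exactly 1 gene symbol, and where a gene had several such probe sets the brightest over all 6 arrays would have been taken. All 10 genes were measured, each by 1 probe set, among 19938 genes in all. RNA came from mouse embryonic stem (ES) cells with the Oct4-GiP reporter, which the labels give as the cell type of both groups. The untreated group (3 arrays) received no vitamin C, and the vitamin C group (3 arrays) received 200 μg/ml L-ascorbic acid 2-phosphate for 72 hours. Both groups grew on gelatin in N2B27 medium with LIF at 1000 U/ml, the MEK inhibitor PD0325901 at 1 μM and the GSK3β inhibitor CHIR99021 at 3 μM. The cells are a single reporter line in culture, and the design text calls the replicates biological triplicates.

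MYC proteins bind DNA only as dimers with MAX, at E-box sequences, and raise transcription of genes for ribosome production, nucleotide synthesis and cell growth. The MXD proteins, MXI1 and MNT compete for MAX and recruit SIN3 corepressors to the same sequences. MLX forms a parallel arm: with MondoA (the product of Mlxip) or ChREBP (the product of Mlxipl) it drives glucose-responsive genes such as Txnip. In mouse ES cells Myc and Mycn support proliferation and self-renewal downstream of LIF, and GSK3 marks MYC protein for destruction. The GSK3 and MEK inhibitors were present in both groups, so the comparison does not show the network without them.

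E-boxes also occur in promoters of the network's own genes, which is why the stretches that hold one are shown. RefSeq promoter sequences (build GRCm38.p6, 250 bases before to 50 after a start) were at hand for 9 of the 10 members in 11 windows, and Myc had none. The canonical E-box, cacgtg, which reads the same on both strands, was found in the windows of Max, Mxd4, Mnt and Mlx, once in each, against 7.15% of all 32851 windows of the same length. The capitals mark the E-box, and each stretch holds 12 bases on either side of it, except that of Max, which ends with the E-box.
Max, chr12:76962246-76962263, minus strand: ggtgagcccggtCACGTG
Mxd4, chr5:34187912-34187941, minus strand: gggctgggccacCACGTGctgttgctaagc
Mnt, chr11:74830789-74830818, plus strand: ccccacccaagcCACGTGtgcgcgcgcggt
Mlx, chr11:101087238-101087267, plus strand: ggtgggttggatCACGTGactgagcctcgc
The E-box of Max begins 3 bases before the start and that of Mlx 40 bases before it. The Mnt E-box begins 123 and the Mxd4 E-box 219 bases before it. In the array data below, Max and Mxd4 rose, Mlx fell and Mnt did not pass the test, so the E-box genes did not share a direction.

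The windows were also searched for the E2F motifs tttggcgc and tttcgcgc on both strands, because E2F factors are known regulators of Mycn. Only Mycn held any, with 3 matches that overlap in part, against 0.813% of all windows with at least 1 match. The capitals mark the matches, the first of which begins 183 bases before the start.
Mycn, chr12:12941985-12942031, minus strand: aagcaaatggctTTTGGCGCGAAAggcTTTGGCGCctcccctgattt
A match is a description of the sequence, and factor binding was not measured.

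Values are log2 signals, which compare arrays for 1 probe set and cannot rank genes against each other. The median signal of an array was 5.52 to 5.60. Arrays within a group correlated at 0.995 to 0.996 across genes, and arrays of different groups at 0.989 to 0.990. Of 12 ES cell markers, Pou5f1, Nanog, Sox2 and Esrrb among them, none lay below the lower quartile of genes on all 6 arrays. Most genes meet that limit, as only 4307 of 19938 lay below it on all arrays. The primitive endoderm markers below also met it, so it does not test the ES cell label. Of the ES cell markers 3 rose (Nanog, Zfp42 and Utf1) and none fell. Their mean level was 10.40 to 10.41 untreated and 10.43 to 10.47 with vitamin C. Markers of other cell types moved between the groups as well. Of 14 fibroblast markers 7 rose and 1 fell, or 57.1% called against 13.2% of all genes. The list's mean level was 5.59 to 5.72 in untreated and 6.09 to 6.14 in vitamin C arrays. Acta2 rose by 1.83, Dcn by 1.06, Tagln by 1.03 and Col1a1 by 0.55, and Pdgfrb fell by 0.32. Lum, Fap and Postn lay below the lower quartile of genes on all 6 arrays. Of these, Lum rose by 0.72 (limma adjusted p = 0.0246) and is among the 7 rises. Of 10 primitive endoderm markers 4 rose (Dab2 by 0.89, Sparc by 0.43, Gata6 by 0.39 and Col4a1 by 0.28) and none fell. That was 40.0% called, against 13.2% of all genes. The list's mean level was 6.10 to 6.16 untreated and 6.34 to 6.39 with vitamin C. Dab2 had 2 probe sets, and 0.89 is the rise of the brightest. With the mean of both in its place Dab2 rose by 0.44 (limma adjusted p = 0.0107), so the other probe set changed less. With arrays centred on the median of all probe sets Utf1 and Col4a1 lost their calls (limma adjusted p = 0.0666 and 0.0747), while the fibroblast counts stayed at 7 and 1. These shifts accompany every result below, and their part in it was not tested. In bulk RNA fewer cells of a type and less RNA per cell cannot be told apart.

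Myc, Mycn and Max were higher with vitamin C. Among the 5 MAX-binding repressors 1 passed, as did 13.2% of all genes. Mlx and Mlxip were lower, but most fits with 1 array left out lost those calls. Of the 10 members 4 rose (Myc, Mycn, Max and Mxd4), 2 fell (Mlx and Mlxip) and 4 did not pass (Mxd1, Mxd3, Mxi1 and Mnt). Each was judged by limma's moderated test fitted over all 19938 genes, with an adjusted p under 0.05 as the threshold. By that rule 13.2% of all genes were called, 5.75% as higher and 7.40% as lower, or 1147 and 1476 genes. The split depends on scaling: with arrays centred on the median of all probe sets, a setting chosen after seeing the data, 866 were higher and 1830 lower. The members kept 4 rises and 2 falls there, and had 4 rises and 1 fall with cyclic loess, which ended the call of Mlx. The 3 arrays of one group lay wholly above or below those of the other for 7 members, the 6 that were called and Mnt, and for 35.0% of all genes. The differences were small: the median size over the 6 called members was 0.31 on the log2 scale, against 0.41 over all called genes. No member lay below the lower quartile of genes on any array.

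**Figure D1:**
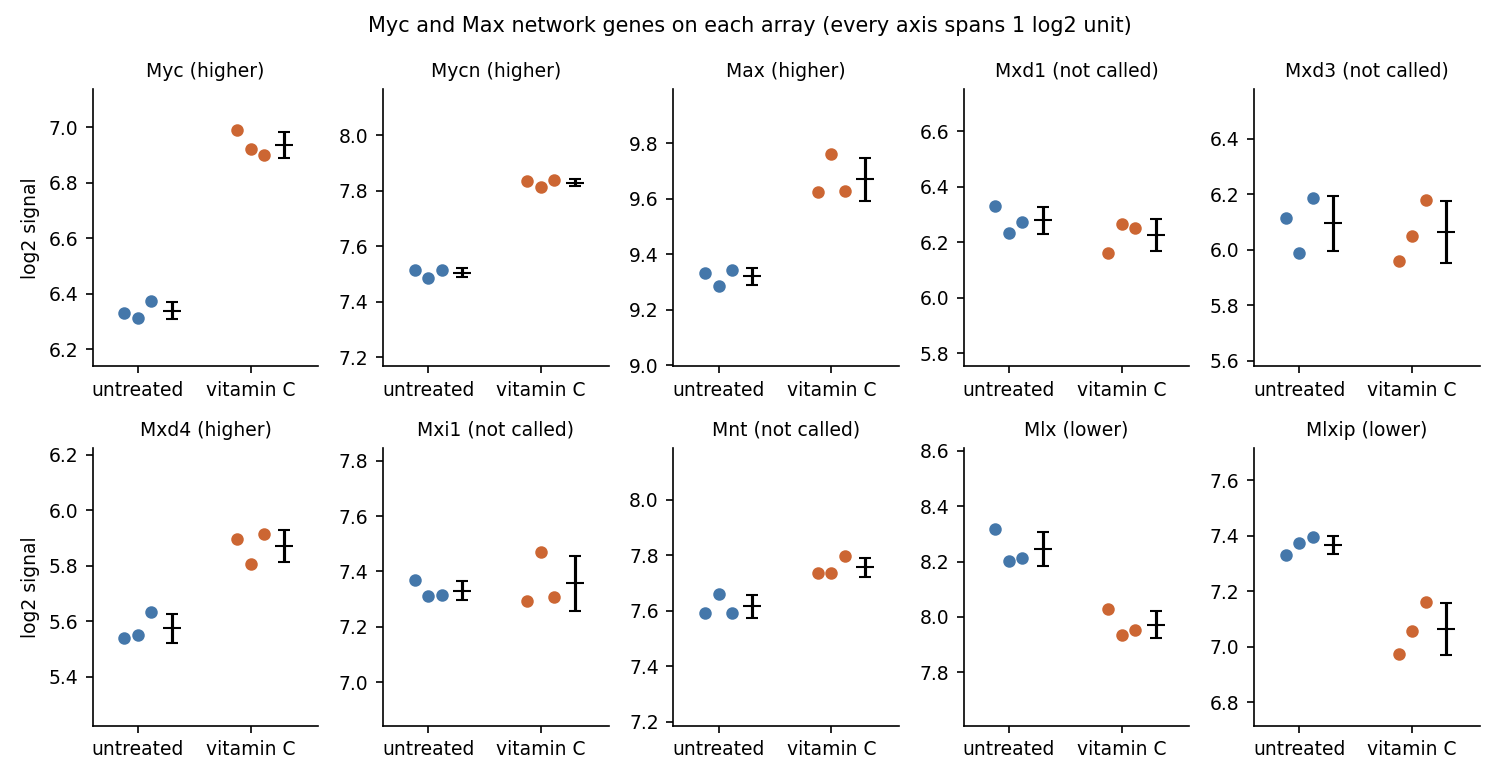
Log2 signal of each of the 10 members on the 3 untreated (blue) and 3 vitamin C (orange) arrays, 1 point per array, with the group mean and SD in black beside the points; every vertical axis spans 1 log2 unit. The orange points lie above the blue ones for Myc, Mycn, Max, Mxd4 and Mnt, below them for Mlx and Mlxip, and among them for Mxd1, Mxd3 and Mxi1.

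Myc, the best-known activator of the network, rose most among the members. Its log2 signal was 6.33, 6.31 and 6.37 in untreated replicates 1, 2 and 3, and 6.99, 6.92 and 6.90 with vitamin C. All vitamin C arrays were above all untreated ones, with a gap of 0.52 between the groups. The difference was 0.60 ± 0.06 (SE), a 1.51-fold rise (limma adjusted p = 0.00152, 95% interval 0.46 to 0.74). Of the 1147 called rises, 312 were at least as large, Myc included. The call held in every setting tried.

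Mycn, the MYC relative that is prominent in embryonic and neural progenitor cells, was 7.51, 7.48 and 7.51 untreated and 7.83, 7.81 and 7.84 with vitamin C. Its replicates spread least of all members in both groups (SD 0.016 and 0.013, n = 3 each), and the groups were 0.30 apart. It rose by 0.33 ± 0.06 (SE), or 1.25-fold (limma adjusted p = 0.0108). Within each array the signal of Myc relative to Mycn went from -1.16 ± 0.024 to -0.89 ± 0.049 (SD, n = 3 each), so Myc rose by 0.27 more than Mycn. The groups did not overlap in this quantity, and an exact two-sided permutation test gave p = 0.1, the smallest that 3 against 3 arrays can give.

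Max, the dimerisation partner of both, was 9.33, 9.29 and 9.34 in untreated cells and 9.62, 9.76 and 9.63 with vitamin C. All vitamin C arrays were higher, and vitamin C replicate 2 was the highest. The rise was 0.35 ± 0.07 (SE), or 1.27-fold (limma adjusted p = 0.0147). Without untreated replicate 2 the difference was 0.33 and the adjusted p was 0.0527, just over the threshold. With any other array left out Max passed narrowly (limma adjusted p = 0.0376 to 0.0460). Calls over all genes also dropped, from 2623 to between 1483 and 1721, with 1 array left out.

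Over all genes 13.2% were called, and among the 5 MAX-binding repressors only Mxd4 passed. Its signal was 5.54, 5.55 and 5.63 untreated and 5.90, 5.81 and 5.91 with vitamin C, with no overlap. Mxd4 rose by 0.30 ± 0.06 (SE), or 1.23-fold (limma adjusted p = 0.0240). The call was lost without untreated replicate 1 or 2 (adjusted p = 0.0759 and 0.0752) and without vitamin C replicate 1 or 3 (0.0754 and 0.0762). Relative to Mxd4 on the same array, Myc shifted by 0.30, without overlap of the groups (exact two-sided permutation p = 0.1, again the smallest possible).

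Mnt, the broadly expressed MAX-binding repressor, was 7.59, 7.66 and 7.59 untreated and 7.74, 7.74 and 7.80 with vitamin C. The groups were separated by only 0.074, and the difference of 0.14 ± 0.06 (SE, limma adjusted p = 0.169) did not pass. Its 95% interval ran from 0.001 to 0.28.

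The other 3 repressors overlapped between the groups. Mxd1, which rises when many cell types differentiate, was 6.33, 6.23 and 6.27 untreated and 6.16, 6.26 and 6.25 with vitamin C, a difference of -0.05 (95% interval -0.20 to 0.10). Mxd3, the MXD member linked to S phase, was 6.11, 5.99 and 6.19 untreated and 5.96, 6.05 and 6.18 with vitamin C, a difference of -0.03 (95% interval -0.23 to 0.16). Both groups of Mxd3 covered nearly the same range, and this gene had the largest spread of the members (SD 0.099 and 0.11, n = 3 each). Mxi1, a MAX-binding repressor that is also a target of hypoxia-inducible factors, was 7.37, 7.31 and 7.31 untreated and 7.29, 7.47 and 7.31 with vitamin C. Its difference was 0.03 (limma adjusted p = 0.846, 95% interval -0.14 to 0.19), and vitamin C replicate 2 stood above the other 5 arrays.

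Both members of the MLX arm fell. Mlx was 8.32, 8.20 and 8.21 untreated and 8.03, 7.94 and 7.95 with vitamin C, with all vitamin C arrays lower. It fell by 0.27 ± 0.06 (SE), or 1.21-fold (limma adjusted p = 0.0335). Mlxip, which encodes the glucose-6-phosphate sensor MondoA, was 7.33, 7.37 and 7.39 untreated and 6.97, 7.05 and 7.16 with vitamin C. All its vitamin C arrays were lower, with a wider spread there (SD 0.033 against 0.094, n = 3 each). It fell by 0.30 ± 0.07 (SE), or 1.23-fold (limma adjusted p = 0.0302). The call of Mlx was lost with any 1 array left out (adjusted p = 0.0604 to 0.0974), and that of Mlxip with any but vitamin C replicate 3 left out (0.0666 to 0.0916), while both differences kept their sign. For Mlx the ordinary linear model without moderation (0.0507) and cyclic loess (0.0785) ended the call, and for Mlxip the model without moderation (0.0642).

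The partner genes Max and Mlx thus moved in opposite directions on the same arrays. Max relative to Mlx went from 1.08 ± 0.057 to 1.70 ± 0.12 (SD, n = 3 each), a shift of 0.62 with no overlap (exact two-sided permutation p = 0.1, the smallest possible). Neither gene overlapped between the groups and they moved oppositely, so this outcome was fixed in advance and adds no support. The relations of Myc to Mycn, Max to Mlx and Myc to Mxd4 were chosen after their values were seen, and the adjusted p over these 3 was 0.1 for each.

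**Figure D2:**
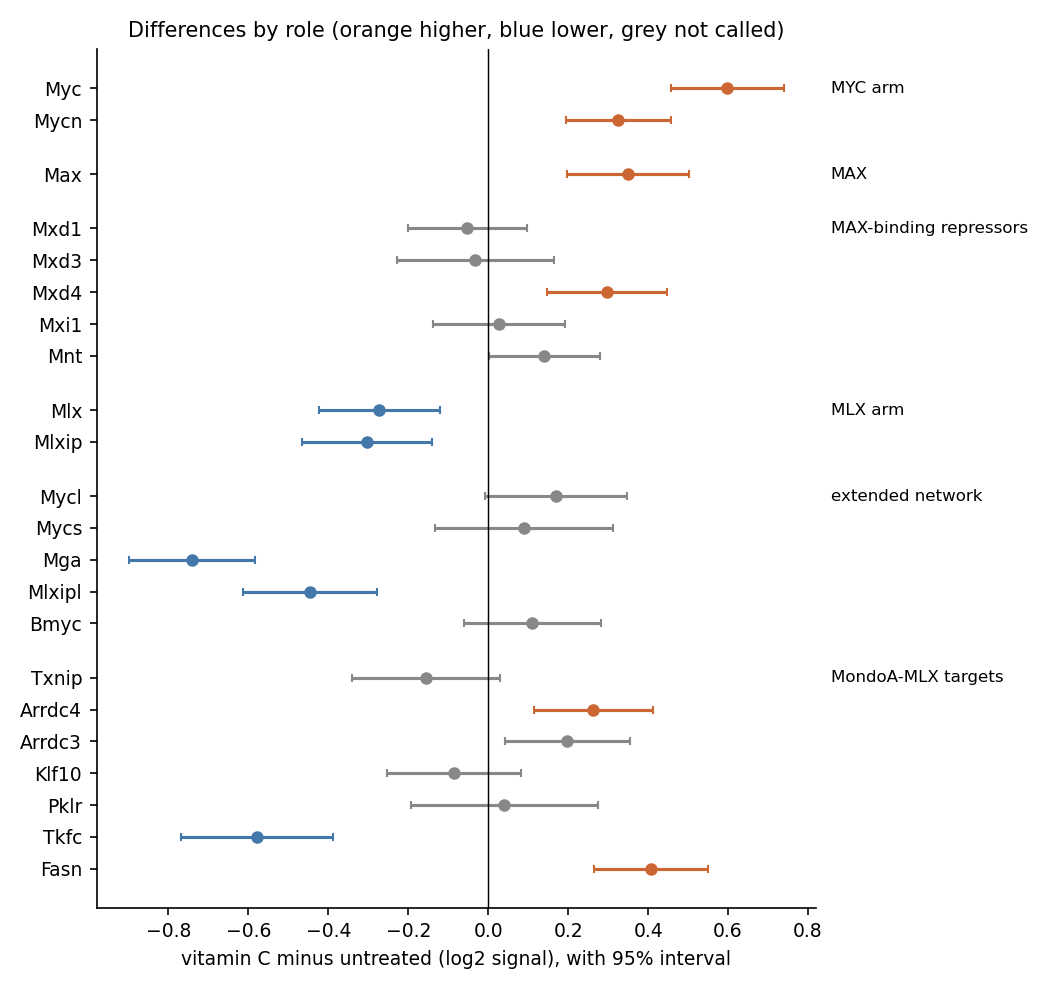
Difference between vitamin C and untreated arrays (log2 signal) with its 95% interval for the 10 members, 5 further network genes and 7 targets of MondoA, ChREBP and MLX, grouped by role; orange marks called rises, blue called falls and grey genes that did not pass. Myc, Mycn and Max lie right of 0, whereas Mlx, Mlxip, Mlxipl and Mga lie left of it.

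The 5 further genes of the extended network were measured too, and 2 fell and none rose, or 40.0% called against 13.2% of all genes. Mga, a very large MAX-binding protein of the PRC1.6 repressor complex that silences germline genes in ES cells, was 8.75, 8.86 and 8.88 untreated and 8.03, 8.14 and 8.09 with vitamin C. It fell by 0.74 ± 0.07 (SE), or 1.67-fold (limma adjusted p = 0.000942), and of the 1476 called falls 143 were at least as large, Mga included. Mlxipl, the ChREBP gene and second partner of Mlx, was 7.01, 7.14 and 7.08 untreated and 6.65, 6.70 and 6.54 with vitamin C. Mlxipl fell by 0.45 ± 0.07 (SE), or 1.36-fold (limma adjusted p = 0.00868), and like Mga it passed with any 1 array left out. The third MYC-family gene, Mycl, differed by 0.17 ± 0.08 (SE, limma adjusted p = 0.191), with vitamin C arrays all above untreated ones. Bmyc, a MYC-related gene without a DNA-binding domain, differed by 0.11 (95% interval -0.06 to 0.28), and Mycs by 0.09 (95% interval -0.13 to 0.31).

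Genes that MondoA or ChREBP induce with MLX showed no common direction. Of the 7 on the array, 2 rose and 1 fell, while 4 did not pass, with a median difference of 0.04 against 0.01 over all genes. The share called was 42.9%, against 13.2% of all genes. Cyclic loess gave 3 rises and 1 fall with a median of -0.02, and centring on the median of all probe sets gave 1 rise and 1 fall. Txnip, the arrestin-like inhibitor of glucose uptake and the classic MondoA target, was 9.73, 9.57 and 9.82 untreated and 9.51, 9.54 and 9.60 with vitamin C. Its groups overlapped, and the difference was -0.16 (95% interval -0.34 to 0.03, limma adjusted p = 0.243). Arrdc4, the related arrestin gene that MondoA also induces, rose by 0.26 (limma adjusted p = 0.0353), a call lost with any 1 array left out (0.0643 to 0.106) and with that centring (0.0680). The fatty acid synthase gene Fasn rose by 0.41 ± 0.06 (SE), and the triokinase gene Tkfc fell by 0.58 ± 0.08 (SE). Arrdc3 differed by 0.20 (limma adjusted p = 0.0960), a difference that passed with a trended and robust spread model (0.0233) and with cyclic loess (0.0408). Klf10 differed by -0.09 and the pyruvate kinase gene Pklr by 0.04.

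Genes that MYC is known to induce were mostly not called. Over 3 lists of such genes 79 of 87 were measured, and 12 rose, 3 fell and 64 did not pass. That is 19.0% called, against 13.2% of all genes, and the median difference was 0.04 against 0.01. The counts depend on scaling: with arrays centred on the median of all probe sets 7 rose and 4 fell, or 13.9% against 13.5% of all genes, with a median of -0.003. Nop56, Rcl1, Mthfd2, Srm and Odc1 lost their rises in that setting, and cyclic loess gave 13 rises and 2 falls. With 1 array left out 4 to 6 of the 79 were called: 5, 6 and 4 without untreated replicates 1, 2 and 3, and 5, 5 and 6 without vitamin C replicates 1, 2 and 3. Over all 19938 genes 1483 to 1721 were called in those fits, in place of 2623. The lists were written from general knowledge, with earlier results of these data known.

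In the cell cycle and translation list 4 of 19 rose and none fell, a share of 21.1% called against 13.2% of all genes. Ccnd1, which encodes the G1 cyclin D1, was 9.24, 9.28 and 9.27 untreated and 9.86, 9.83 and 9.83 with vitamin C, a rise of 0.58 ± 0.06 (SE, limma adjusted p = 0.00136). The cullin gene Cul1 rose by 0.41 and passed with any 1 array left out, as Ccnd1 did. Ccnd2, for cyclin D2, rose by 0.48 but not without untreated replicate 2 or 3 or vitamin C replicate 1 or 2 (0.0665 to 0.0776). Ung, the uracil glycosylase gene, rose by 0.31, a call kept only when vitamin C replicate 2 was the array left out (otherwise 0.0578 to 0.0957).

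In the metabolism list 5 of 29 rose, 2 fell and 22 did not pass, a share of 24.1% called against 13.2% of all genes. The transferrin receptor gene Tfrc went from 9.05 ± 0.040 to 9.56 ± 0.047 (SD, n = 3 each), a rise of 0.52 ± 0.06 (SE, limma adjusted p = 0.00261). The amino acid transporter gene Slc7a5 rose by 0.32 ± 0.06 (SE), and both passed with any 1 array left out. Mthfd2, a mitochondrial one-carbon enzyme gene, rose by 0.31, a call kept only without untreated replicate 2 (otherwise 0.0555 to 0.0821). The polyamine genes Srm (0.27) and Odc1 (0.23) rose, and the purine enzyme gene Paics (-0.24) and the serine enzyme gene Shmt2 (-0.23) fell. These 4 calls were lost with any 1 array left out, at adjusted p-values of 0.0554 to 0.107 for Srm, 0.0814 to 0.140 for Odc1, 0.0797 to 0.107 for Paics and 0.0794 to 0.127 for Shmt2. Odc1 was named after its value was seen.

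In the list of nucleolar and ribosome-assembly genes 3 of 31 rose, 1 fell and 27 did not pass, a share of 12.9% against 13.2% of all genes. Polr1b, a subunit gene of RNA polymerase I, rose by 0.35, but not without untreated replicate 1 or 3 or vitamin C replicate 2 or 3 (0.0623 to 0.0663). The box C/D snoRNP gene Nop56 (0.25) and Rcl1 (0.31) rose, and both calls were lost with any 1 array left out (0.0709 to 0.0845 and 0.0511 to 0.0862). Pes1, of the PeBoW complex of large-subunit assembly, fell by 0.30, a call kept only without vitamin C replicate 3 (otherwise 0.0670 to 0.0980).

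**Figure D3:**
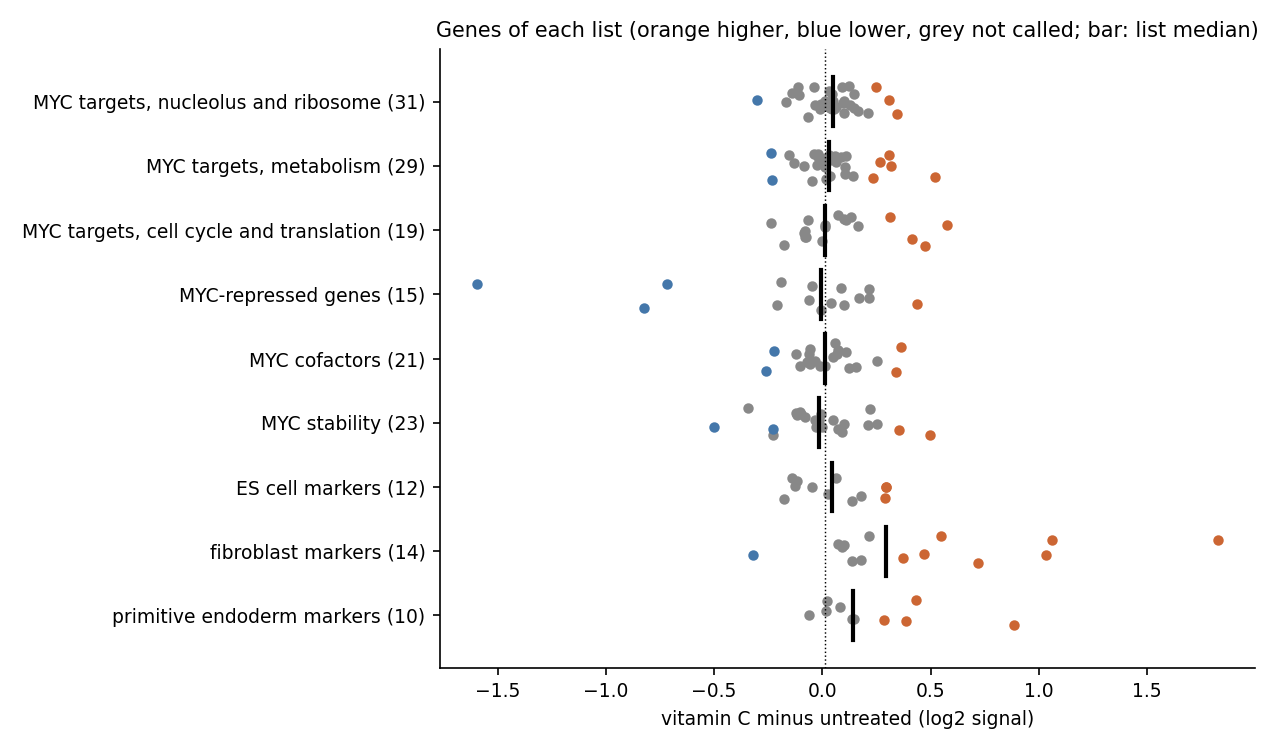
Difference between vitamin C and untreated arrays (log2 signal) for every measured gene of each list, 1 point per gene, with orange for called rises, blue for called falls and grey for genes that did not pass; black bars are list medians and the dotted line is the median of all genes (0.01), and the number in brackets is the genes measured. The 3 MYC target lists centre near the dotted line, with medians of 0.05, 0.03 and 0.01, and the fibroblast markers lie farther right, with a median of 0.29.

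Of 15 measured genes that MYC is known to repress, 1 rose, 3 fell and 11 did not pass, with a median of -0.01. The share called was 26.7%, against 13.2% of all genes. Ndrg2 fell most, from 8.84 ± 0.16 to 7.24 ± 0.023 (SD, n = 3 each), or 3.02-fold (limma adjusted p = 0.000143), and its relative Ndrg1 fell by 0.82 ± 0.10 (SE). Both belong to the N-myc downstream-regulated family, and Ndrg1 is also induced in hypoxia. The stress gene Gadd45b fell by 0.72, but not without vitamin C replicate 1 (0.0557) or 3 (0.0530), and Gadd45a rose by 0.44 ± 0.07 (SE). The cell-cycle inhibitor genes Cdkn1b, Cdkn1c, Cdkn2b and Cdkn2c were on the list and were not called, and Cdkn1a was listed but not measured.

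Genes that work with MYC proteins or set their stability gave 4 rises and 4 falls, a balance that depends on scaling. Cyclic loess gave 7 rises and 1 fall: Ruvbl2, Kat5 and Ppp2r1a no longer passed (adjusted p = 0.0752, 0.106 and 0.0549), and Usp36, Gsk3b and Usp7, named after their values were seen, passed as higher. Arrays centred on the median of all probe sets gave 4 rises and 6 falls. Of 21 measured cofactor genes 2 rose, 2 fell and 17 did not pass, so 19.0% were called against 13.2% of all genes. Wdr5, a chromatin cofactor that anchors MYC, was 9.49, 9.46 and 9.47 untreated and 9.79, 9.82 and 9.89 with vitamin C, a rise of 0.36 ± 0.06 (SE, limma adjusted p = 0.00923). The acetyltransferase gene Crebbp rose by 0.34, a call kept only without vitamin C replicate 1 (otherwise 0.0595 to 0.0747). The ATPase gene Ruvbl2 (-0.22) and Kat5 (-0.26), which encodes the TIP60 acetyltransferase, fell, and both calls were lost with any 1 array left out (0.0877 to 0.124 and 0.0670 to 0.122).

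Of 23 measured genes for regulators of MYC protein stability 2 rose, 2 fell and 19 did not pass, so 17.4% were called against 13.2% of all genes. Fbxw7, the ubiquitin ligase subunit that recognises phosphorylated MYC, was 8.10, 8.27 and 8.03 untreated and 8.66, 8.68 and 8.55 with vitamin C, a rise of 0.50 ± 0.08 (SE, limma adjusted p = 0.00904). Fbxw7 had 2 probe sets, and with their mean in place of the brightest it rose by 0.39 (limma adjusted p = 0.00904). Usp28, the deubiquitinase that counters FBXW7, went from 7.99 ± 0.015 to 7.49 ± 0.16 (SD, n = 3 each), a fall of 0.50 ± 0.09 (SE, limma adjusted p = 0.0112). The groups of each gene did not overlap, and both calls held with any 1 array left out, although Usp28 missed the threshold without moderation (0.0599). Among the subunits of the phosphatase PP2A, which destabilises MYC, Ppp2r5a rose by 0.35 and Ppp2r1a fell by 0.23. The first call was kept only without untreated replicate 3 (otherwise 0.0503 to 0.120), and the second was lost with any 1 array left out (0.0790 to 0.120). Ppp2r5a had 4 probe sets, and with their mean in place of the brightest it rose by 0.27 (limma adjusted p = 0.0466). Protein levels were not measured. Over the cofactor and stability lists together 8 of 44 genes were called, or 18.2% against 13.2% of all genes. With 1 array left out 3 to 4 were called (3, 3 and 4 without untreated replicates 1, 2 and 3, and 4, 3 and 3 without vitamin C replicates 1, 2 and 3). In those fits 1483 to 1721 of all 19938 genes were called, in place of 2623.

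Over the 6 arrays, the genes whose signal followed Myc most closely were Tuba3b (Pearson r = 0.9998), Itih5 (0.9973) and Eif5 (0.9972). Tuba3b is a testis tubulin gene and rose by 2.23, and Eif5, a translation initiation factor gene, rose by 0.77. Those that followed Mlxip most closely were Tcn2 (0.9988), Uhrf1 (0.9981) and Cnpy4 (0.9980). These are descriptions over 6 arrays that share the same contrast: 588 genes correlated with Myc above 0.95, and 513 with Mlxip.

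**Figure D4:**
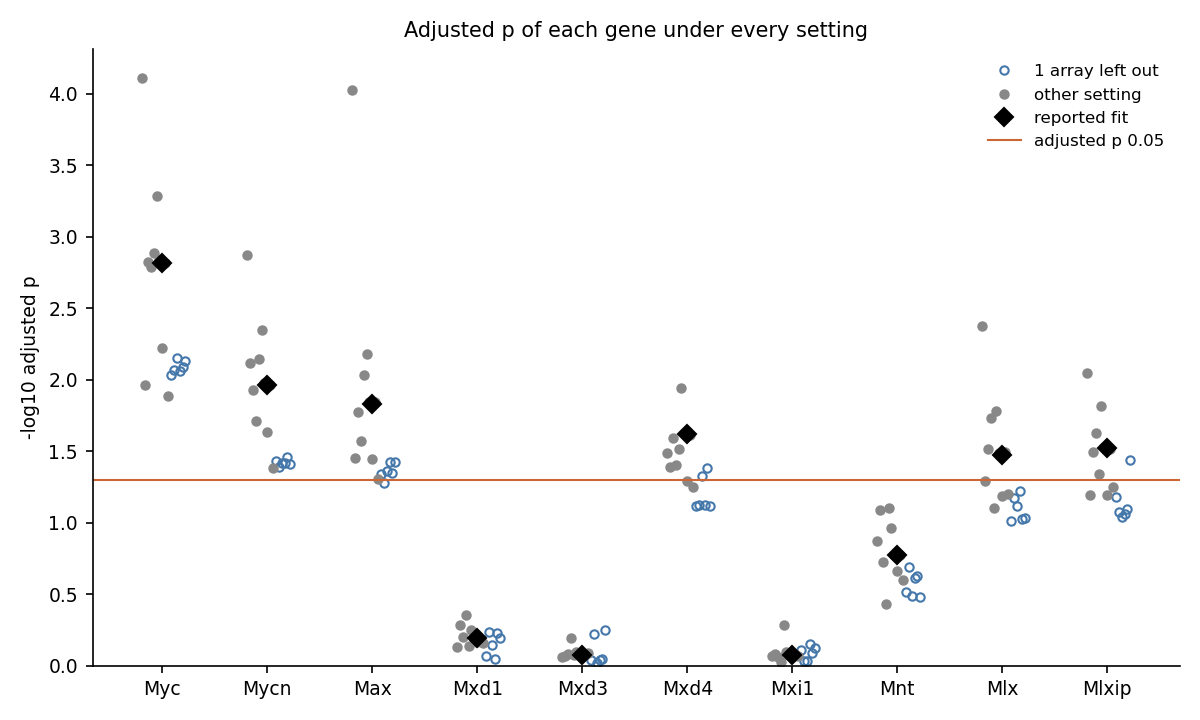
Adjusted p of each member on a -log10 scale, so that higher points have smaller p-values, in the reported fit (black diamond), with 1 array left out (open blue circles) and under the other settings (grey points); the orange line is the threshold of 0.05. All points of Myc and Mycn lie above the line and those of Mxd1, Mxd3, Mxi1 and Mnt below it, whereas Max has 1 point below it and Mxd4, Mlx and Mlxip have points on both sides.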

How the data were processed

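The authors deposited log2 signals of 35557 probe sets on 6 Affymetrix arrays; RMA is the tool named per the submitters' processing notes, and the log2 scale was read from the values. RMA in general makes array distributions alike, which hides any shift common to all genes. The genome build and the RMA software with its version were not given in the sources used here. The platform annotation gave 1 symbol for 21789 probe sets, several for 1621 and none for 12147; probe sets with several symbols or none were not used for genes. For 999 genes with several probe sets the brightest was taken. Groups came from sample titles. The 2 groups were fitted with lmFit and eBayes of limma 3.58.1 (R 4.3.3), without a covariate, with Benjamini-Hochberg adjustment over 19938 genes and 95% intervals from the moderated test. The fit was tested on simulated data. The members, gene lists, tests and settings were chosen with earlier results of these data known. Named genes were the members, all measured genes of the extended network and MondoA-MLX lists, up to 4 called genes with the smallest p per direction of each other list, and the 3 genes most correlated with the member of smallest p in each direction. The number of arrays limits the precision. Figures were drawn with matplotlib 3.10.9.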

Additional observations from a re-analysis of the deposited data

How the results depend on the processing

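No called gene named in the text changed sign under any setting tried, leaving aside Lum and the genes most correlated with Myc and Mlxip. Lum and those correlated genes were not followed over all the settings. In place of 6 members, 3 were called when all probe sets of the table were tested, 3 with the replicate block, 1 at a threshold of 0.01, and 2 to 4 with 1 array left out. Myc (0.60) passed everywhere. At the 0.01 threshold Mycn (0.33), Max (0.35), Mxd4 (0.30), Mlx (-0.27) and Mlxip (-0.30) did not pass. With 1 array left out the differences ranged from 0.31 to 0.37 for Max, 0.28 to 0.33 for Mxd4, -0.30 to -0.24 for Mlx, -0.35 to -0.26 for Mlxip, -0.092 to 0.020 for Mxd3 and -0.031 to 0.058 for Mxi1. When all probe sets were tested, Mxd4 (0.30, adjusted p = 0.0510), Mlx (-0.27, 0.0649) and Mlxip (-0.30, 0.0645) missed the threshold; that setting adjusts over more tests. Without moderation Mlx (-0.27) and Mlxip (-0.30) missed it, and cyclic loess gave Mlx -0.23; the cause was not tested. Arrays centred on the median of all probe sets, a setting chosen after seeing the data, gave Mxi1 -0.013 and, over all genes, 866 higher and 1830 lower calls in place of 1147 and 1476; all 6 members kept their calls.

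The labels number the replicates 1 to 3 in both groups, but deviations of same-numbered arrays from their group means correlated at only 0.05, 0.01 and -0.02. No shared effect of the replicate number was thus visible. Whether same-numbered cultures were paired by design cannot be told from these values. With the replicate block 1723 genes were called, 3 members (Myc, Mycn and Max; Mxd4 at 0.30, Mlx at -0.27 and Mlxip at -0.30 missed the threshold with adjusted p = 0.0565, 0.0631 and 0.0564) and 6 MYC target genes.

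Over all genes the 2623 calls became 4151 with the trended and robust spread model, 1545 without moderation, 901 at 0.01 and 1483 to 1721 with 1 array left out. Of the MYC targets 24, 9, 3 and 4 to 6 were called under these settings in the same order, and 6 when all probe sets were tested. Of the cofactor and stability genes 13, 4, 2 and 3 to 4 were called, and 3 when all probe sets were tested. Of 44 other named genes called, again without Lum and the genes most correlated with Myc and Mlxip, 18 kept their call in all 17 settings. Signal over background was not measured, so limits for dim genes are unknown.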
